A study of Mus musculus with 96 samples.

Results

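The comparison described here set bone marrow-derived macrophages (BMDMs) given LPS after tBHQ against the same kind of cells given LPS after BrefA. Its members were the 8 libraries titled tBHQ and the 8 titled BrefA, in wells E to H of 2 plates, so 16 of the 96 libraries of a screen with 12 groups. All cells were grown from the bone marrow of male wild-type C57BL/6 mice aged 8 weeks, in medium conditioned with the growth factor M-CSF. In both groups the compound was added 30 min before LPS, and RNA was taken 4 h after LPS. The reference groups used below were DMSO with LPS (8 wells) and NoStim, cells without LPS (8 wells), whose vehicle the labels do not give. Doses were not given and neither compound was measured without LPS, so each difference is between the compounds at 1 dose each under LPS. The labels do not say whether wells came from separate cultures or mice, so the p-values measure the spread between wells, which may be technical. The measurement was a count of 3' ends of messenger RNA per gene.

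tBHQ is tert-butylhydroquinone, an electrophile that modifies cysteines of KEAP1 and so releases the transcription factor NRF2, which drives antioxidant and heme-degrading genes. BrefA is brefeldin A, a fungal product that blocks the exchange factors of ARF GTPases, stops transport from the endoplasmic reticulum to the Golgi and causes an unfolded protein response. LPS acts on macrophages through TLR4: a first branch activates NF-kB and MAP kinases, which raise cytokine and chemokine genes, and a further branch activates IRF3, which raises interferon beta. Interferon beta is secreted and acts back on the cells through its receptor, which raises the antiviral genes. The pair was taken because both compounds lowered interferon genes most among the compounds of the screen, so a low level of those genes against DMSO is what chose the pair and is no result here. The direct difference between tBHQ and BrefA was not part of that choice.

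Among interferon genes whose promoters carry the same element, Isg15 and Gbp2 were lower in tBHQ. Tgtp1 did not pass the test, and Irgm1 had a call in the other direction that did not hold under every alternative. Tgtp1 and Irgm1 were chosen after their values were seen. The stretches that hold the element are printed to show it in genes with and without a firm difference. The stretches are RefSeq promoter sequence of build GRCm38.p6 (mm10), 5′ to 3′ on the gene's strand, from the 250 bases before the annotated start. Capitals mark matches to the interferon response element GAAANNGAAA (N is any base) on either strand, where overlapping matches run together. In Hspa5, a chaperone gene of the endoplasmic reticulum, capitals mark the endoplasmic reticulum stress element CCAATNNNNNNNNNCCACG. The Isg15 stretch lies at chr4:156200850-156200921 (minus strand), Gbp2 at chr3:142620579-142620638 (plus), Tgtp1 at chr11:48992289-48992348 (minus), Irgm1 at chr11:48871421-48871475 (minus) and Hspa5 at chr2:34772000-34772068 (plus).
Isg15: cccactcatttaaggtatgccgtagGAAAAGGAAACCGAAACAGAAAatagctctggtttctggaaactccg
Gbp2: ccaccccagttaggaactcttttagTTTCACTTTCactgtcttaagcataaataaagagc
Tgtp1: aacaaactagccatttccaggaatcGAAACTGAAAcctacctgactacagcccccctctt
Irgm1: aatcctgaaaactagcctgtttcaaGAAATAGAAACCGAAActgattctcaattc
Hspa5: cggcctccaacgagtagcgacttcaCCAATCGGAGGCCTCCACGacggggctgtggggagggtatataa
The interferon element matched in 2.98% of all 32851 RefSeq mouse promoters of this length, in 14 of 47 promoters of the interferon antiviral effectors tested (some genes have several) and in 9 of 11 promoters of the interferon-inducible GTPases. Isg15 and Gbp2 were lower in tBHQ than in BrefA, and Tgtp1 did not pass the test. Irgm1 was higher in tBHQ, a call that was lost under 4 alternatives given with its values below. Among promoters of all genes higher in tBHQ the element matched in 3.49%, and among those lower in tBHQ in 3.66%. The stress element matched in 0.113% of all promoters and in 6 of 20 promoters of the endoplasmic reticulum folding genes, those of Calr, Canx, Dnajc3, Hsp90b1, Hspa5 and Pdia6. It matched in 4 of 930 promoters of genes lower in tBHQ, 0 of 889 of genes higher and 7 of 4856 of tested genes. Not all of the 6 genes were therefore called lower in tBHQ. A match is a run of letters, not a measured binding site.

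The libraries were shallow. Total counts ran from 175510 to 275733 in tBHQ and from 178983 to 290435 in BrefA, and the mean difference of -22704 counts did not pass an exact permutation test within plates (two-sided p = 0.304, smallest possible 0.000408). The ribosomal precursor Rn45s took 12.2 to 30.9% of counts in tBHQ and 13.3 to 25.5% in BrefA (exact permutation p = 0.501). Each of the 16 libraries correlated most with its own group's profile on the other plate, among the 12 groups (r from 0.417 to 0.851 over 2670 genes). Of 21 macrophage markers in the table none was at 0 in either group. Their summed level ran from 7619 to 12816 counts per 1000000 (CPM) in tBHQ and from 5473 to 8019 in BrefA. Markers of other cell types were low. In tBHQ the summed level reached at most 7.25 CPM for neutrophils (5 of 7 markers at 0, Mpo and Elane among them), 4.99 for B cells (3 of 5 at 0, with Pax5), 20.2 for T cells (3 of 6 at 0, with Cd3e and Cd3g), 3.65 for erythroid cells (4 of 5 at 0, with Hba-a1), 11.4 for fibroblasts (5 of 7 at 0, with Col1a1) and 21.8 for endothelial cells (1 of 4 at 0, Tek). In BrefA these sums reached at most 3.52 (6 of 7 at 0), 3.65 (4 of 5), 11.04 (4 of 6), 7.03 (4 of 5), 8.76 (3 of 7) and 10.96 CPM (3 of 4) in the same order. The lowest well of each was at 0 in both groups. The summed dendritic cell markers ran from 9.98 to 43.8 CPM in tBHQ (4 of 6 at 0) and from 14.1 to 62.0 in BrefA (2 of 6 at 0), with Flt3 at 0 in both. In bulk wells, fewer cells that express a gene and less RNA of it per cell cannot be told apart.

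The compounds differed widely. In the direct comparison 1805 of 4963 tested genes passed edgeR's quasi-likelihood test at a Benjamini-Hochberg adjusted p of 0.05, which is 36.4%. Of these, 875 genes (17.6%) were higher in tBHQ and 930 (18.7%) lower, and 1801 of the 1805 had the same direction on both plates. The change was over 2-fold for 325 of the higher and 397 of the lower genes, and the median over all tested genes was 0.01 on the log2 scale. With RLE scaling 1116 genes were called higher and 762 lower, with library totals alone 1211 and 694, and with DESeq2 1140 and 782. The median of all genes under these was 0.12, 0.17 and 0.12, so the direction of small differences depends on the scaling. No gene passed edgeR's test of whether the tBHQ minus BrefA difference itself differed between plates (0 called, 361 at an unadjusted p under 0.05). Below, levels are CPM scaled by TMM, given as the lowest and highest well with the median of 8, and differences are tBHQ minus BrefA on the log2 scale with a standard error and edgeR's adjusted p.

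Genes that LPS itself raised were mostly lower in tBHQ than in BrefA, and genes that LPS lowered were mostly higher. The LPS classes came from DMSO and NoStim wells, which enter neither side of the direct difference. In that comparison 36.1% of genes passed the test. LPS raised 532 genes over 2-fold and past the threshold. Of these, 308 (57.9%) were lower in tBHQ and 16 (3.01%) higher, with a median difference of -0.86. Of 278 genes that LPS lowered by as much, 185 (66.5%) were higher in tBHQ and 10 (3.60%) lower, with a median of 0.98. Of the other 4153 genes, 674 were higher and 612 lower, with a median of 0.04. Under RLE scaling, library totals and DESeq2 the raised class held 296, 287 and 298 genes lower in tBHQ, and the lowered class 200, 203 and 202 higher. The class members stayed those of the main fit and were not remade under each scaling. Past the threshold alone, DMSO minus NoStim called 968 genes higher and 822 lower in the main fit. With library totals it called 643 and 1705.

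**Figure D1:**
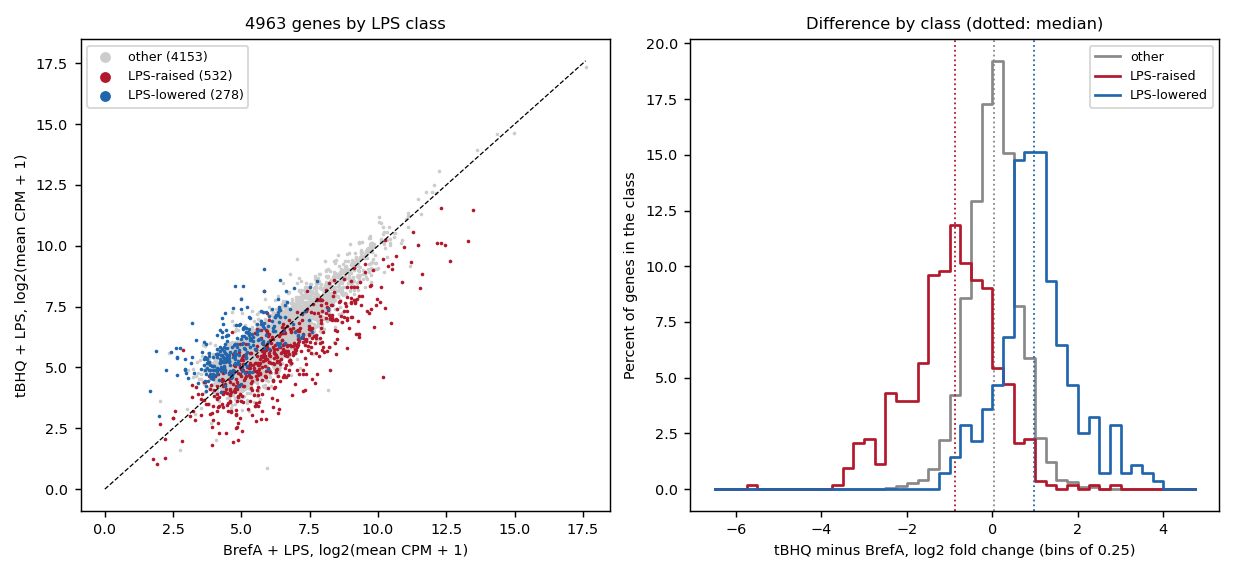
Left, the mean level of each of 4963 genes in tBHQ with LPS against BrefA with LPS, as log2(mean CPM + 1), with the LPS class in color and equality dashed. Right, the percent of genes of each class by log2 difference, where the LPS-raised class has its median at -0.86 and the LPS-lowered class at 0.98.

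Among named genes with at least 30 CPM in the higher group, the 12 furthest below BrefA in tBHQ were Il12b, Il23a, Herpud1, Ccl2, Tnfsf9, Tnfsf15, Ccl5, Edn1, Nfkbia, Csf1, Exoc3l4 and Ccl7, with differences from -5.64 to -3.18. The genes furthest above included Sox4, Tnfaip8l2, Fos, Sik1, Slc26a11, Rgs2, Rab3il1, Hbegf, Arhgap25 and Hspa1a, with differences from 2.92 to 3.91. In none of these genes did the 8 tBHQ wells overlap the 8 BrefA wells, which picking the largest called changes favors. Of 97 called genes named here, 69 had no such overlap. Many of the 97 were picked for the size of their change, and the share over all tested genes was not counted. The 69 of 97 is therefore no result about these genes, and overlap or its absence is given below as description only.

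**Figure D2:**
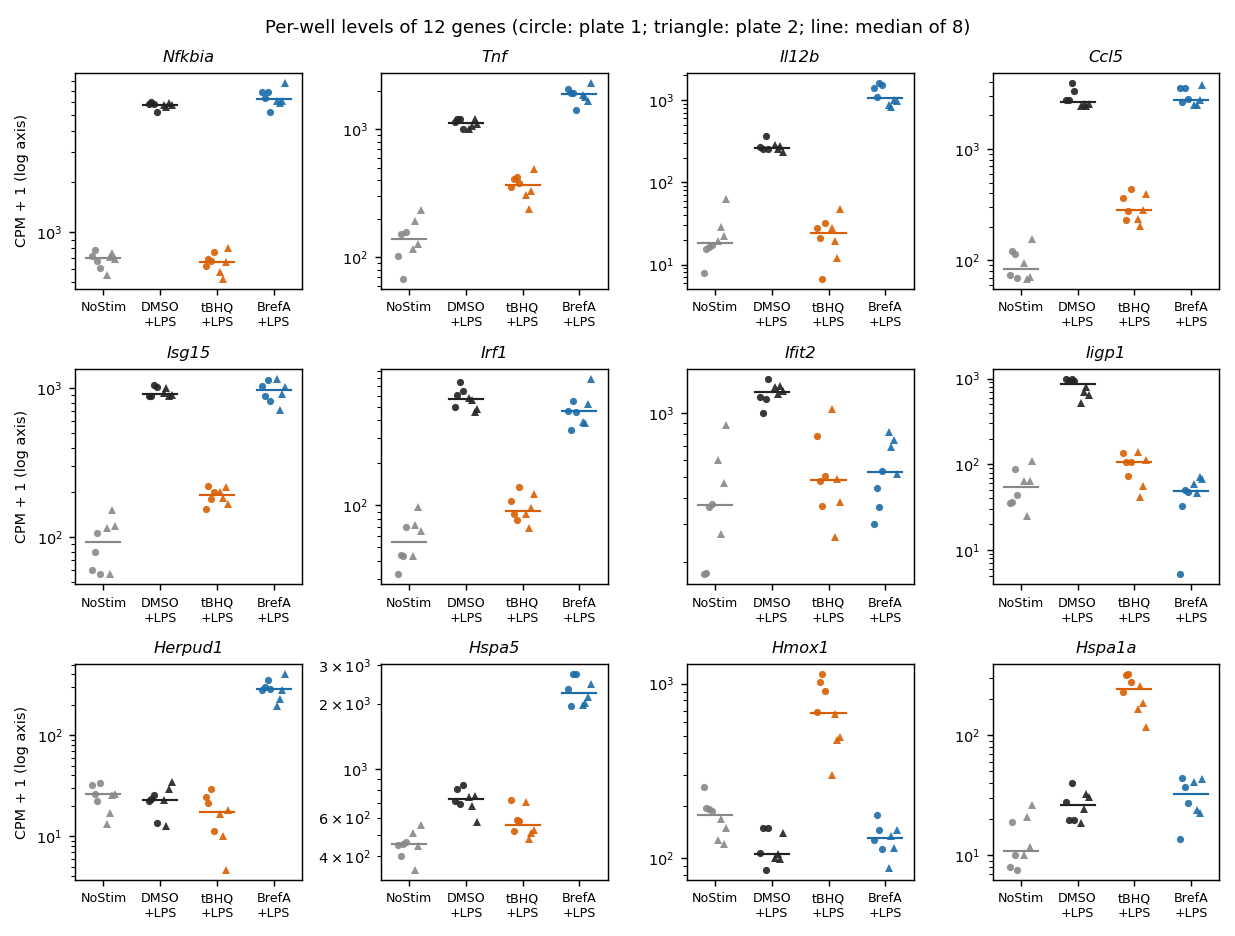
Levels of 12 genes in each well as CPM + 1 on a log axis, for NoStim, DMSO, tBHQ and BrefA (the last 3 with LPS), with circles for plate 1, triangles for plate 2 and a line at the median of 8. For Nfkbia, Tnf, Il12b, Ccl5, Isg15 and Irf1 all tBHQ wells lie below all BrefA wells, for Ifit2 they overlap, and for Hmox1 and Hspa1a all tBHQ wells lie above.

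Cytokine genes were lower in tBHQ almost without exception. Of 22 listed cytokine genes 16 were tested. Of these 15 (93.75%) were lower in tBHQ, none was higher and Il1a did not pass, with a median of -2.60 beside 0.01 for all genes. LPS raised 14 of the 16 past the threshold. Of all tested genes 18.7% were lower in tBHQ, and of those that LPS raised 53.1%. With the 2 groups fitted alone 12 cytokine genes were tested and 11 were lower. Il12b, the p40 subunit shared by IL-12 and IL-23, was at 5.70 to 47.0 CPM (median 23.3) in tBHQ and 817 to 1613 CPM (median 1048) in BrefA. DMSO wells had 235 to 365 CPM (median 263) and NoStim wells 6.93 to 61.4 CPM (median 17.2), so BrefA wells lay above DMSO and tBHQ wells overlapped NoStim. The difference was -5.64 ± 0.21, adjusted p = 1.2e-53, or 50.0-fold. Il23a, the p19 subunit of IL-23, had 2 counts over the 8 tBHQ libraries and 127 over the 8 BrefA libraries, a ratio of 64.7 with a 95% exact counting interval from 17.5 to 540. That interval covers counting error only, and leaves out the spread between wells and any PCR copies. With so few tBHQ counts Il23a could be tested only through its level in other groups. Its call is therefore description and no support for the list. Tnf, the early inflammatory cytokine, was at 237 to 487 CPM (median 365) in tBHQ, 1405 to 2304 CPM (median 1881) in BrefA and 1006 to 1204 CPM (median 1120) in DMSO. Every BrefA well was above every DMSO well and every tBHQ well below (-2.35 ± 0.13, adjusted p = 7.8e-33). Il1b was lower than DMSO in both, at 77.3 to 306 CPM (median 239) in tBHQ, 780.3 to 1205 CPM (median 967) in BrefA and 2060 to 3297 CPM (median 2414) in DMSO (-2.17 ± 0.15, adjusted p = 4.1e-25). Gdf15, a stress cytokine, was the member whose tBHQ wells also lay above DMSO. It had 42.7 to 117 CPM (median 80.8) in tBHQ, 106 to 222 CPM (median 146) in BrefA and 3.10 to 12.6 CPM (median 9.02) in DMSO (-0.98 ± 0.21, adjusted p = 6.7e-05), and the 2 compounds' wells overlapped.

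The ligands of the TNF family and the growth factors in this group split the same way. Tnfsf9 (4-1BB ligand) had medians of 27.1 CPM in tBHQ and 279 in BrefA (-3.43 ± 0.21, adjusted p = 1.9e-32), and Tnfsf15 had 18.2 and 198 (-3.32 ± 0.23, adjusted p = 6.7e-28). Csf1, the macrophage growth factor M-CSF, had medians of 15.7 and 147 (-3.22 ± 0.27, adjusted p = 3.7e-21). Edn1, the peptide endothelin 1, had 12.7 and 148, with DMSO at 154 (-3.29 ± 0.34, adjusted p = 2.5e-14). Ifnb1, which encodes interferon beta, was too low to be tested: it had 5 counts over the 8 tBHQ libraries, 32 over BrefA, 14 over DMSO and 2 over NoStim.

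Chemokine genes showed the same order. Of 16 tested, 13 were lower in tBHQ, 1 was higher and 2 did not pass, with a median of -2.08. That is 81.25% lower, beside 18.7% of all tested genes and 53.1% of those that LPS raised past the threshold. Ccl2, which draws monocytes through CCR2, was at 72.8 to 156 CPM (median 113) in tBHQ and 884 to 2001 CPM (median 1422) in BrefA, with 677 to 886 CPM (median 731) in DMSO (-3.67 ± 0.20, adjusted p = 1.2e-29). BrefA wells did not overlap tBHQ wells, and the BrefA level was above DMSO (0.90 on the log2 scale). Ccl5, which attracts T cells, was at 205 to 436 CPM (median 279.8) in tBHQ and 2476 to 3762 CPM (median 2767) in BrefA, where it overlapped the DMSO wells (2425 to 3913 CPM with median 2642). The difference was -3.31 ± 0.20, adjusted p = 1.4e-26. Ccl7, a further ligand of CCR2, had medians of 90.4 and 893 CPM (-3.18 ± 0.19, adjusted p = 2.5e-26), and Ccl3 had 448 and 2918 (-2.79 ± 0.16, adjusted p = 3.1e-27). Cxcl1, a neutrophil attractant, had medians of 80.6 in tBHQ, 525 in BrefA and 129 in DMSO (-2.96 ± 0.19, adjusted p = 3.9e-28). Cxcl10, the interferon-inducible ligand of CXCR3, differed less: 1088 to 2156 CPM (median 1630) in tBHQ and 1724 to 3287 CPM (median 2438) in BrefA, against 7333 to 9412 CPM (median 7883) in DMSO (-0.70 ± 0.20, adjusted p = 0.0041). On plate 1 alone its adjusted p was 0.20. Ccl6, which macrophages make without LPS, was the member that was higher in tBHQ (61.8 to 151 CPM with median 118 against 25.3 to 91.6 CPM with median 47.8, 1.11 ± 0.20, adjusted p = 1.6e-06), and on plate 2 alone it had an adjusted p of 0.050.

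The NF-kB genes themselves differed too. Of 22 tested subunits and feedback inhibitors, 17 were lower in tBHQ, none was higher and 5 did not pass (median -1.50). That is 77.3% lower, beside 18.7% of all tested genes and 53.1% of those that LPS raised past the threshold. Nfkbia, the inhibitor IkB alpha that NF-kB induces, was at 523 to 804 CPM (median 664) in tBHQ and 5206 to 7793 CPM (median 6227) in BrefA. DMSO wells had 5261 to 5999 CPM (median 5782) and NoStim wells 553 to 783 CPM (median 698), so tBHQ wells covered the NoStim range and BrefA wells the DMSO range (-3.27 ± 0.11, adjusted p = 8.2e-59). Nfkbie, a related inhibitor, had medians of 58.0 and 278 CPM (-2.40 ± 0.18, adjusted p = 1.9e-25). The subunit genes differed less: Nfkb1 by -1.34 ± 0.18 and Nfkb2 by -1.39 ± 0.19. Among 19 tested LPS-inducible enzymes and surface molecules 15 (78.9%) were lower in tBHQ and none higher (median -1.39). Among them were the costimulatory receptor Cd40 (medians 80.0 and 626 CPM, -3.11 ± 0.18, adjusted p = 6.4e-30), the membrane protease Mmp14 (6.28 and 78.2, -3.15 ± 0.32, adjusted p = 1.7e-16) and the adhesion molecule Icam1 (131 and 798, -2.45 ± 0.15, adjusted p = 7.1e-31). Irg1, whose enzyme makes itaconate, was at 132 to 287 CPM (median 207) in tBHQ, 952 to 1198 CPM (median 1072) in BrefA and 1049 to 1271 CPM (median 1183) in DMSO (-2.37 ± 0.13, adjusted p = 3.2e-36).

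Of 12 tested LPS sensing genes 4 were lower in tBHQ and 1 higher (median -0.26). That is 41.7% called beside 36.4% of all tested genes, so the list as a whole was near the background. Across the alternatives between 2 and 5 were lower and at most 1 higher. Tlr2, the receptor for bacterial lipoproteins, was at 57.0 to 96.9 CPM (median 86.0) in tBHQ, 485 to 799.7 CPM (median 582) in BrefA and 127 to 187 CPM (median 160.3) in NoStim (-2.91 ± 0.14, adjusted p = 2.1e-40). All 8 tBHQ wells were below all NoStim wells as well as all BrefA wells. Cd14, the LPS co-receptor, was at 147 to 276 CPM (median 244) and 352 to 736 CPM (median 459.7) (-1.19 ± 0.13, adjusted p = 1.5e-13). Tlr4 and Ly96, which bind LPS, were too low to be tested, with 54 and 24 counts over the tBHQ libraries and 36 and 28 over BrefA. Socs3, a feedback inhibitor of cytokine signalling, was below DMSO in both and lower in tBHQ (22.7 to 68.7 CPM with median 48.9 against 161 to 356 CPM with median 196, with 389 to 650.3 CPM with median 525 in DMSO, -2.15 ± 0.19, adjusted p = 1.2e-19).

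The interferon genes, on which the pair was chosen, are given here in 3 groups by the direct comparison. These are genes lower in tBHQ, genes that did not pass and genes higher in tBHQ. Their levels against DMSO are description only, since such levels chose the pair. Against the shared DMSO wells, 42 of 47 tested antiviral effectors were lower in tBHQ and 38 in BrefA, with medians of -1.53 and -1.36 (background 36.4% and 17.3% of genes called in either direction), as the choice of the pair fixes. Directly compared, 15 of the 47 were lower in tBHQ, 4 higher and 28 did not pass, with a median of -0.15 that became 0.11 on plate 1 alone and was also positive with library totals. The share called was 40.4% beside 36.4% of all tested genes. Of 15 interferon-inducible GTPases 4 were lower in tBHQ, 2 higher and 9 did not pass (median 0.25, which was just below 0 without the library tBHQ 1E). Of 17 interferon signalling and regulatory factors 6 were lower, 3 higher and 8 did not pass (median -0.13, positive with library totals). The shares called in these lists were 40.0% and 52.9%. On plate 2 alone 1 antiviral effector was higher and 3 of the regulatory factors were lower. With both directions pooled, the antiviral and GTPase shares were near that of all tested genes, but by direction they differed from LPS-raised genes. LPS raised 46 of the 47 antiviral effectors and all 15 GTPases past the threshold. Of all genes so raised, 53.1% were lower in tBHQ and 3.10% higher. The antiviral list had 31.9% lower and 8.51% higher, and the GTPase list 26.7% and 13.3%. Of all tested genes, 18.7% were lower and 17.6% higher. What follows describes single members.

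The first group was lower in tBHQ, and in 4 members described first the BrefA wells lay near or partly within the DMSO range. Isg15, a ubiquitin-like antiviral protein, was at 153 to 221 CPM (median 191) in tBHQ and 711 to 1162 CPM (median 967) in BrefA, with 880.3 to 1052 CPM (median 910.1) in DMSO. The difference was -2.34 ± 0.17, adjusted p = 3.7e-21. BrefA minus DMSO was 0.03, with a 95% interval from -0.28 to 0.34. Irf1, a transcription factor that NF-kB induces, was at 68.2 to 134 CPM (median 89.9), 342 to 793 CPM (median 463) and 459 to 744 CPM (median 567) in the same order (-2.35 ± 0.18, adjusted p = 8.1e-22). Oasl1 was at 60.3 to 213 CPM (median 145), 431 to 712 CPM (median 521) and 526 to 694 CPM (median 624) (-1.97 ± 0.21, adjusted p = 1.3e-13). Ifih1, the double-stranded RNA sensor MDA5, was at 109 to 326 CPM (median 194), 358 to 637 CPM (median 527) and 569.8 to 811 CPM (median 612) (-1.40 ± 0.16, adjusted p = 1.1e-12). In none of these 4 genes did tBHQ and BrefA wells overlap.

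Other members of the first group were below DMSO in both and lowest in tBHQ. Ifi205 was at 72.8 to 154 CPM (median 114) in tBHQ, 342 to 474 CPM (median 409) in BrefA and 800.0 to 1168 CPM (median 926) in DMSO (-1.82 ± 0.16, adjusted p = 9.2e-19). The guanylate-binding proteins Gbp2 (22.7 to 109 CPM with median 44.4 against 122 to 220.3 CPM with median 160.3, -1.42 ± 0.25, adjusted p = 1.8e-06) and Gbp7 (40.9 to 93.0 CPM with median 86.9 against 176 to 283 CPM with median 185, -1.34 ± 0.19, adjusted p = 1.8e-09) did not overlap between compounds. Gbp3 overlapped (9.10 to 120.2 CPM with median 43.2 against 94.1 to 195 CPM with median 109, -1.27 ± 0.35, adjusted p = 0.0022), and on plate 2 alone its adjusted p was 0.34. Ifit1, which binds foreign RNA caps, was at 396 to 667 CPM (median 532) and 785 to 1025 CPM (median 876) (-0.79 ± 0.15, adjusted p = 1.1e-05), and Rsad2 (viperin) at 2052 to 3962 CPM (median 2991) and 4493 to 5389 CPM (median 5169) (-0.77 ± 0.18, adjusted p = 0.00031), both without overlap. Rsad2 had an adjusted p of 0.079 on plate 2 alone.

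In the second group the direct difference did not pass the test. Ifit2 was at 259 to 1047 CPM (median 482) in tBHQ and 299.9 to 811 CPM (median 524) in BrefA, with 993 to 1449 CPM (median 1250) in DMSO, and the 95% interval of the difference ran from -0.38 to 0.38. Ifit3 had an interval from -0.30 to 0.67, and the antiviral GTPase Mx1 one from -0.17 to 0.73 (27.3 to 139.6 CPM with median 126 against 67.6 to 119 CPM with median 86.9, with 408 to 670.1 CPM with median 523 in DMSO). The signal transducer Stat2 had an interval from -0.31 to 0.51. Tgtp1, a GTPase with an interferon element in its promoter, had an interval from -0.11 to 1.22.

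In the third group BrefA gave the lower level. Iigp1, an immunity-related GTPase that acts on parasite vacuoles, was at 40.9 to 139.6 CPM (median 106) in tBHQ and 4.22 to 71.1 CPM (median 47.8) in BrefA, against 520.5 to 999 CPM (median 856) in DMSO (0.97 ± 0.30, adjusted p = 0.0062). The wells overlapped, and on plate 2 alone its adjusted p was 0.51. Irgm1, a regulator of the same family, was at 54.6 to 120.2 CPM (median 91.5) and 42.7 to 89.1 CPM (median 59.8) (0.55 ± 0.19, adjusted p = 0.013), but lost the call on each plate alone (adjusted p 0.15 and 0.13), with no filter (0.084) and with same-lettered wells summed (0.063). Irf8, a transcription factor of macrophage identity, was at 148 to 222 CPM (median 189) in tBHQ and 49.3 to 109 CPM (median 96.2) in BrefA without overlap, with 382 to 673 CPM (median 508) in DMSO and 203 to 344 CPM (median 273) in NoStim (1.11 ± 0.16, adjusted p = 1.6e-09). Irf7, which amplifies interferon production, was at 65.5 to 185 CPM (median 124) and 46.1 to 85.3 CPM (median 62.1) (0.93 ± 0.21, adjusted p = 0.00016). Xaf1 differed by 0.95 ± 0.23 and Ifitm3, which blocks viral entry, by 0.89 ± 0.13. Xaf1 had an adjusted p of 0.070 on plate 2 alone. For Ifitm3 the tBHQ wells (434 to 809.6 CPM with median 678) overlapped the DMSO wells (501 to 921 CPM with median 651) and all BrefA wells lay below the DMSO wells (228 to 481 CPM with median 341). Of 13 antigen presentation genes 2 were higher in tBHQ, the peptide transporter Tap1 (0.69 ± 0.26, adjusted p = 0.024) and the immunoproteasome subunit Psmb8 (0.67 ± 0.19, adjusted p = 0.0026), and 2 lower, which is 30.8% called and under the background of 36.4%. Psmb8 had an adjusted p of 0.12 on plate 1 alone. Tap1 lost the call when BrefA 1E, 1F or 1H or tBHQ 1H or 2G was left out, with adjusted p from 0.050 to 0.070, and also with no filter (0.088) and on plate 2 alone (0.42).

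**Figure D3:**
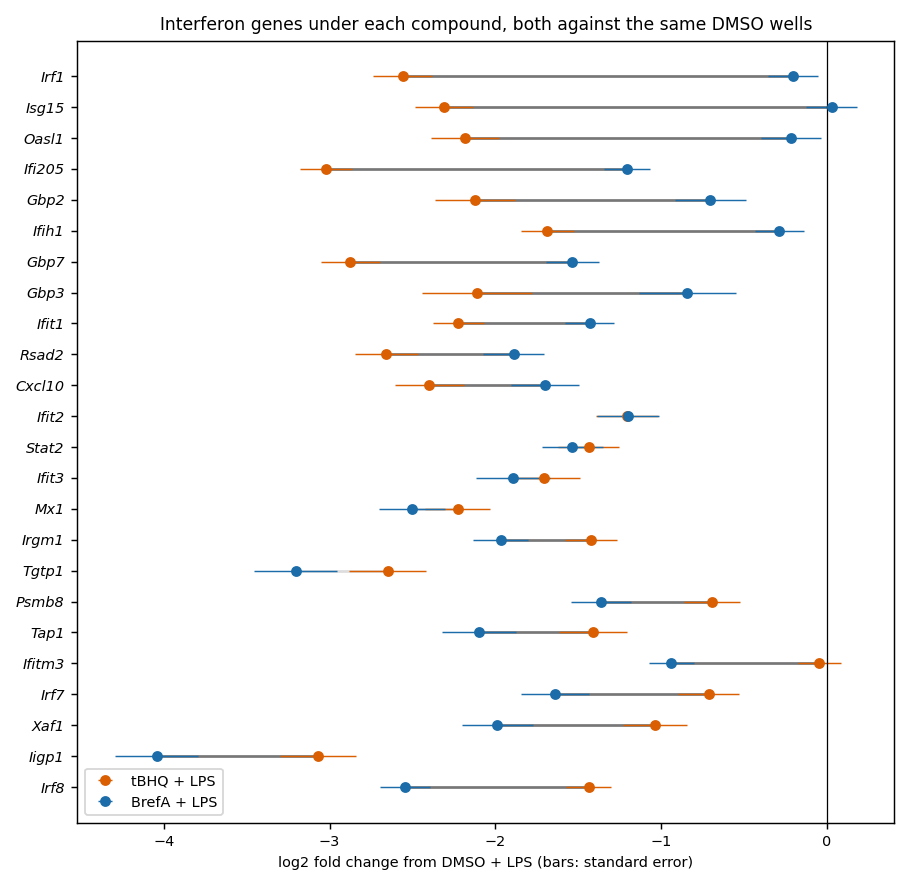
Log2 fold change from DMSO with LPS, with standard errors, of 24 interferon genes under tBHQ and BrefA, ordered by the direct difference; dark connecting lines mark genes that passed the direct test. Both compounds are set against the same 8 DMSO wells, and a low level against DMSO is what chose the pair. Irf1, Isg15 and Oasl1 have BrefA near 0 and tBHQ below -2, Ifit2 has both at the same place, and Iigp1 and Irf8 have BrefA lowest.

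Genes of the endoplasmic reticulum and the secretory route were higher in BrefA. Of 27 tested folding and degradation genes 18 were lower in tBHQ and none higher (median -0.68), and of 21 translocation genes 13 were lower and none higher (median -0.65). That is 66.7% and 61.9% lower, beside 18.7% of all tested genes. On plate 1 alone 10 of the folding genes were lower and on plate 2 alone 11, and on plate 2 alone 8 of the translocation genes. Herpud1, a component of the degradation complex of the endoplasmic reticulum, was at 3.63 to 28.5 CPM (median 16.3) in tBHQ and 192 to 402 CPM (median 284) in BrefA, with 11.6 to 33.5 CPM (median 22.0) in DMSO (-4.14 ± 0.27, adjusted p = 5.3e-30). Hspa5 (BiP), the main chaperone there and the gene whose stress element is printed above, was at 478 to 724 CPM (median 551) in tBHQ, 1943 to 2732 CPM (median 2239) in BrefA and 574 to 842 CPM (median 729.8) in DMSO (-1.98 ± 0.11, adjusted p = 8.7e-37). In both genes every BrefA well was above every tBHQ and DMSO well. Hyou1, a further chaperone, was at 28.5 to 93.1 CPM (median 67.2) in tBHQ, 235 to 598 CPM (median 296) in BrefA and 86.7 to 218 CPM (median 172) in DMSO, so that tBHQ was also below DMSO (-1.28, -2.34 ± 0.18, adjusted p = 1.2e-23). Dnajb9 had medians of 26.0 and 76.8 CPM (-1.54 ± 0.28, adjusted p = 1.8e-06), and Hsp90b1 of 407 and 688 (-0.81 ± 0.17, adjusted p = 6.4e-05), both with overlapping wells. Hsp90b1 had an adjusted p of 0.060 on plate 2 alone. The translocon subunits Sec61a1 and Sec61b differed by -0.81 ± 0.22 and -0.53 ± 0.18. Sec61a1 had an adjusted p of 0.057 on plate 1 alone. Sec61b lost the call under RLE scaling (adjusted p 0.058), library totals (0.12) and DESeq2 (0.058), and on each plate alone (0.14 and 0.089).

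The Golgi genes followed. Of 35 tested, 16 were lower in tBHQ, 2 higher and 17 did not pass (median -0.47). That is 45.7% lower and 5.71% higher, beside 18.7% and 17.6% of all tested genes. On plate 1 alone 6 were lower and none higher. Kdelr2, a receptor that returns chaperones to the endoplasmic reticulum, was at 72.6 to 145 CPM (median 115) in tBHQ and 275 to 598 CPM (median 395) in BrefA (-1.78 ± 0.16, adjusted p = 1.1e-18). Arf4, an ARF GTPase, was at 47.0 to 131 CPM (median 64.0) and 145 to 314 CPM (median 216), with 102 to 166 CPM (median 139.8) in DMSO (-1.57 ± 0.18, adjusted p = 3.1e-13), and Arfgap3, which turns ARF off, at 10.1 to 31.0 CPM (median 21.3) and 32.6 to 59.9 CPM (median 48.0) (-1.20 ± 0.31, adjusted p = 0.00076). None of the 3 overlapped between compounds. Arf1, the most studied ARF, did not pass, with a 95% interval from -0.64 to 0.09. Rab1b, a GTPase of the step from the endoplasmic reticulum to the Golgi, was higher in tBHQ (10.1 to 55.6 CPM with median 33.0 against 4.22 to 37.4 CPM with median 10.6, 1.49 ± 0.40, adjusted p = 0.0011), with an adjusted p of 0.12 on plate 1 alone. Insig1, which holds back sterol synthesis in the endoplasmic reticulum, was lower in tBHQ (47.0 to 105 CPM with median 84.6 against 130.3 to 312 CPM with median 194, -1.42 ± 0.19, adjusted p = 1.1e-10).

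Genes of the integrated stress response were mostly lower in tBHQ than in BrefA. Of 14 tested ATF4 and CHOP targets 10 were lower in tBHQ and 1 higher (median -1.13). That is 71.4% lower, beside 18.7% of all tested genes. Against the shared DMSO wells, 4 of the 14 were higher and 1 lower in tBHQ (median 0.17), and 9 were higher and none lower in BrefA (median 1.37). Atf4, the transcription factor of this response, was at 218 to 476 CPM (median 293) in tBHQ, 560.4 to 895 CPM (median 719) in BrefA and 85.2 to 156 CPM (median 126) in DMSO, so the 3 groups did not overlap (-1.26 ± 0.14, adjusted p = 5.6e-14). Ddit3 (CHOP), which it induces, was at 58.4 to 119.9 CPM (median 80.0), 99.5 to 144 CPM (median 119) and 5.33 to 35.4 CPM (median 9.75) in the same order. The direct difference of Ddit3 was small (-0.52 ± 0.21, adjusted p = 0.044) and was lost under most alternatives, among them all 3 other scalings, while both compounds were above DMSO (2.64 and 3.15). Asns, asparagine synthetase, had 6.65 to 30.2 CPM (median 16.6) in tBHQ and 27.5 to 81.0 CPM (median 54.4) in BrefA (-1.61 ± 0.34, adjusted p = 2.5e-05). Nupr1 was at 18.2 to 128 CPM (median 43.2) and 224 to 388 CPM (median 279), with DMSO at 174 to 290.1 CPM (median 197) (-2.50 ± 0.23, adjusted p = 2.7e-17). Ddit4, an inhibitor of mTORC1, had medians of 2.14 and 13.6 CPM (-2.13 ± 0.60, adjusted p = 0.0011), with an adjusted p of 0.050 on plate 2 alone. Of 15 tRNA synthetase genes 7 were lower in tBHQ and none higher (46.7% lower beside 18.7% of all tested genes, median -0.43). Those lower included Iars (-1.28 ± 0.30, adjusted p = 0.00019) and Aars (-1.21 ± 0.25, adjusted p = 2.8e-05). Iars had an adjusted p of 0.053 on plate 2 alone. Against DMSO 2 of the 15 were higher in tBHQ and 9 in BrefA. Trib3 and Chac1, further ATF4 targets that were too low to be tested, had 14 and 8 counts over tBHQ, 48 and 51 over BrefA and 3 and 1 over DMSO.

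Genes of the oxidative stress response did not move together. Of 27 tested NRF2 targets and regulators 9 were higher in tBHQ, 7 lower and 11 did not pass (median 0.17). The share called was 59.3%, beside 36.4% of all tested genes. The split went with the LPS class. Of 11 members that LPS lowered past the threshold, 7 were higher in tBHQ and 1 lower (median 0.64). Of 8 that LPS raised, 1 was higher and 6 lower (median -0.70). Over all tested genes, 54.9% of those LPS lowered were higher in tBHQ, and 53.1% of those it raised were lower. On plate 2 alone 5 were higher, and with library totals 4 were lower. Hmox1, heme oxygenase 1, was at 299 to 1131 CPM (median 678) in tBHQ, 86.9 to 176 CPM (median 129.9) in BrefA and 85.0 to 149 CPM (median 105) in DMSO (2.41 ± 0.17, adjusted p = 8.5e-27, 5.31-fold), without overlap between compounds. Blvra, which reduces the biliverdin that heme oxygenase makes, had medians of 95.3 and 22.9 CPM (1.71 ± 0.26, adjusted p = 1.2e-08). Ftl1, the ferritin light chain that stores iron, was at 6848 to 9970 CPM (median 8922) and 4348 to 5344 CPM (median 4719) (0.85 ± 0.10, adjusted p = 6.6e-13). Other members were lower in tBHQ. Slc7a11, the cystine transporter, which ATF4 also drives, was at 0 to 31.0 CPM (median 13.3) and 21.7 to 66.0 CPM (median 48.7) (-1.72 ± 0.36, adjusted p = 2.4e-05). Txnrd1, thioredoxin reductase 1, was at 200.1 to 458 CPM (median 345) in tBHQ, 448 to 757 CPM (median 565) in BrefA, 511 to 937 CPM (median 563) in DMSO and 158 to 360.0 CPM (median 220.4) in NoStim (-0.79 ± 0.13, adjusted p = 2.3e-07). Gclm, the glutathione synthesis subunit, did not pass (interval -0.15 to 0.60). Nqo1, the textbook target, was too low to be tested, with 7 counts over the tBHQ libraries, 4 over BrefA and 0 over DMSO.

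Of 19 tested cytosolic heat shock genes 5 were higher in tBHQ, 2 lower and 12 did not pass (median 0.08, and -0.10 on plate 2 alone). The share called, 36.8%, was close to that of all tested genes (36.4%), and single members differed. The inducible HSP70 genes Hspa1a (115 to 322 CPM with median 242 in tBHQ, 12.7 to 42.7 CPM with median 31.3 in BrefA, 17.3 to 39.0 CPM with median 24.9 in DMSO, 2.92 ± 0.24, adjusted p = 3.7e-22) and Hspa1b (147 to 391 CPM with median 279.5 and 38.0 to 79.0 CPM with median 55.3, 2.28 ± 0.21, adjusted p = 1.9e-18) were higher in every tBHQ well. These 2 genes are near-identical copies, and how the counting split reads between them was not given in the sources used here. Hsph1, a cofactor of HSP70 (2.36 ± 0.38, adjusted p = 3.5e-08), and Zfand2a, an arsenite-inducible regulator of the proteasome (2.53 ± 0.30, adjusted p = 5.8e-13), were also higher without overlap. Hsp90aa1, the inducible HSP90, was at 1650 to 3015 CPM (median 2268) in tBHQ, 1791 to 2749 CPM (median 1912) in BrefA and 874 to 1225 CPM (median 1005) in DMSO. Both compounds lay above DMSO, and the interval of their difference ran from -0.14 to 0.32. Stip1, which links HSP70 and HSP90, was lower in tBHQ (-0.81 ± 0.24, adjusted p = 0.0047), with an adjusted p of 0.19 on plate 1 alone.

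Of 22 tested immediate early and MAP kinase feedback genes 9 were higher in tBHQ, 3 lower and 10 did not pass (median 0.25). The share called was 54.5%, beside 36.4% of all tested genes. LPS had lowered 7 of the 22 in DMSO wells, and of these 4 were higher in tBHQ and none lower. Of all 822 genes that LPS lowered past the threshold, 451 (54.9%) were higher in tBHQ and 24 lower, so this count was near that share. Of the 7 that LPS had raised 2 were higher and 2 lower, and of the other 8, Jun among them, 3 were higher and 1 lower. Fos was at 256 to 409 CPM (median 334) in tBHQ, 12.7 to 50.5 CPM (median 22.2) in BrefA, 16.8 to 52.0 CPM (median 30.3) in DMSO and 176 to 295 CPM (median 272) in NoStim (3.67 ± 0.28, adjusted p = 9.3e-21). BrefA wells overlapped DMSO wells, and tBHQ wells overlapped NoStim wells. Zfp36l1 and Zfp36l2, which destabilise messenger RNAs, had medians of 168 and 219.6 CPM in tBHQ, 22.1 and 28.2 in BrefA and 155 and 193 in NoStim (2.77 ± 0.26, adjusted p = 3.8e-18 and 2.80 ± 0.26, adjusted p = 5.2e-18). Atf3, a stress-induced repressor, was in another order, at 333 to 684 CPM (median 405) in tBHQ, 92.9 to 128 CPM (median 104) in BrefA and 186 to 308 CPM (median 203) in DMSO, so tBHQ was above DMSO and BrefA below it (2.09 ± 0.16, adjusted p = 4.6e-25). Jun was at 137 to 186 CPM (median 157) and 9.18 to 89.1 CPM (median 35.9), with 31.7 to 75.5 CPM (median 58.6) in NoStim (1.88 ± 0.28, adjusted p = 1.6e-08). Dusp2, a MAP kinase phosphatase, was lower in tBHQ (6.65 to 45.5 CPM with median 22.1 against 115 to 211 CPM with median 136, -2.53 ± 0.21, adjusted p = 2e-21). Cdkn1a (p21), which LPS raised, was at 770.1 to 1380 CPM (median 1013) in tBHQ, 4069 to 6859 CPM (median 5490) in BrefA and 5411 to 6533 CPM (median 5983) in DMSO (-2.40 ± 0.11, adjusted p = 1e-41).

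Of the named genes highest over BrefA, Rgs2 and Fos had NoStim wells that overlapped those of tBHQ. Rgs2, a brake on G protein signalling, was at 337 to 678 CPM (median 551) in tBHQ, 10.7 to 86.9 CPM (median 56.2) in BrefA, 45.6 to 69.4 CPM (median 65.4) in DMSO and 313 to 518 CPM (median 442) in NoStim (3.21 ± 0.19, adjusted p = 1.9e-32). Sox4, Tnfaip8l2, Slc26a11, Rab3il1 and Arhgap25 had tBHQ medians from 46.6 to 122 CPM, BrefA medians from 1.76 to 8.21 and NoStim medians from 23.1 to 71.9. Their NoStim medians thus lay above those of BrefA, in a lower range than those of tBHQ. Sik1, a kinase that cAMP induces, and Hbegf, a growth factor of the EGF family, had low NoStim levels. Their tBHQ medians of 46.3 and 49.8 CPM stood above those of NoStim (8.76 and 1.40) as well as BrefA (2.11 and 6.59).

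Lysosomal, mitochondrial and macrophage genes were higher in tBHQ by smaller amounts. Of 34 tested lysosome and autophagy genes 21 were higher in tBHQ and none lower, with a median of 0.43. That is 61.8% higher, beside 17.6% of all tested genes. LPS had lowered 16 of the 34 past the threshold, and 12 of these were higher, beside 54.9% of all genes so lowered. Of the 18 not past the LPS threshold 9 were higher, beside 12.4% of all such genes. For the whole list the number higher was 12 with same-lettered wells summed (1 lower), 10 with no filter and 9 on plate 2 alone. Neu1, a lysosomal sialidase, was at 59.8 to 119.7 CPM (median 82.9) and 21.3 to 56.4 CPM (median 35.3) (1.28 ± 0.24, adjusted p = 3.7e-06), and Ctsd, the protease cathepsin D, at 1633 to 2552 CPM (median 1995) and 839.9 to 1254 CPM (median 1031) (0.93 ± 0.10, adjusted p = 1.2e-15), both without overlap. Atp6v0d1, a subunit of the proton pump, differed by 1.13 ± 0.27. Flcn, folliculin, which acts on the Rag GTPases at the lysosome, was at 30.2 to 69.0 CPM (median 58.1) and 4.59 to 35.2 CPM (median 13.7) (1.62 ± 0.32, adjusted p = 1e-05), while its partner Fnip1 was above DMSO in both (1.76 and 1.64) with an interval of the direct difference from -0.26 to 0.48. Of 33 nuclear oxidative phosphorylation genes 15 were higher in tBHQ and none lower (45.5% higher beside 17.6% of all tested genes, median 0.34). On plate 1 alone 7 were higher and on plate 2 alone 8. An example was the ATP synthase gene Atp5g1 (0.85 ± 0.23, adjusted p = 0.0014), which had an adjusted p of 0.097 on plate 2 alone. Of 46 ribosomal protein genes 10 were higher and 1 lower (median 0.19, 23.9% called), and between 1 and 31 were called higher across the alternatives, so that count rests on the setting.

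Of 19 tested macrophage identity genes 11 were higher in tBHQ and 1 lower (median 0.55). That is 57.9% higher, beside 17.6% of all tested genes. The Fc receptors stood out. Fcgr1 was at 76.4 to 174 CPM (median 111) in tBHQ, 16.01 to 32.1 CPM (median 24.0) in BrefA and 53.3 to 142 CPM (median 111) in DMSO (2.25 ± 0.23, adjusted p = 1.1e-15), and Fcgr3 at 171 to 266 CPM (median 224), 39.8 to 71.8 CPM (median 58.1) and 113 to 195 CPM (median 170.1) (1.96 ± 0.17, adjusted p = 6.4e-21). In both genes the BrefA wells were below all DMSO wells and all tBHQ wells. The general markers Csf1r, Cd68 and Emr1 did not pass, with intervals from -0.08 to 0.37, from -0.54 to 0.52 and from -0.57 to -0.00. The part of cell number or cell state in these differences was not tested.

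**Figure D4:**
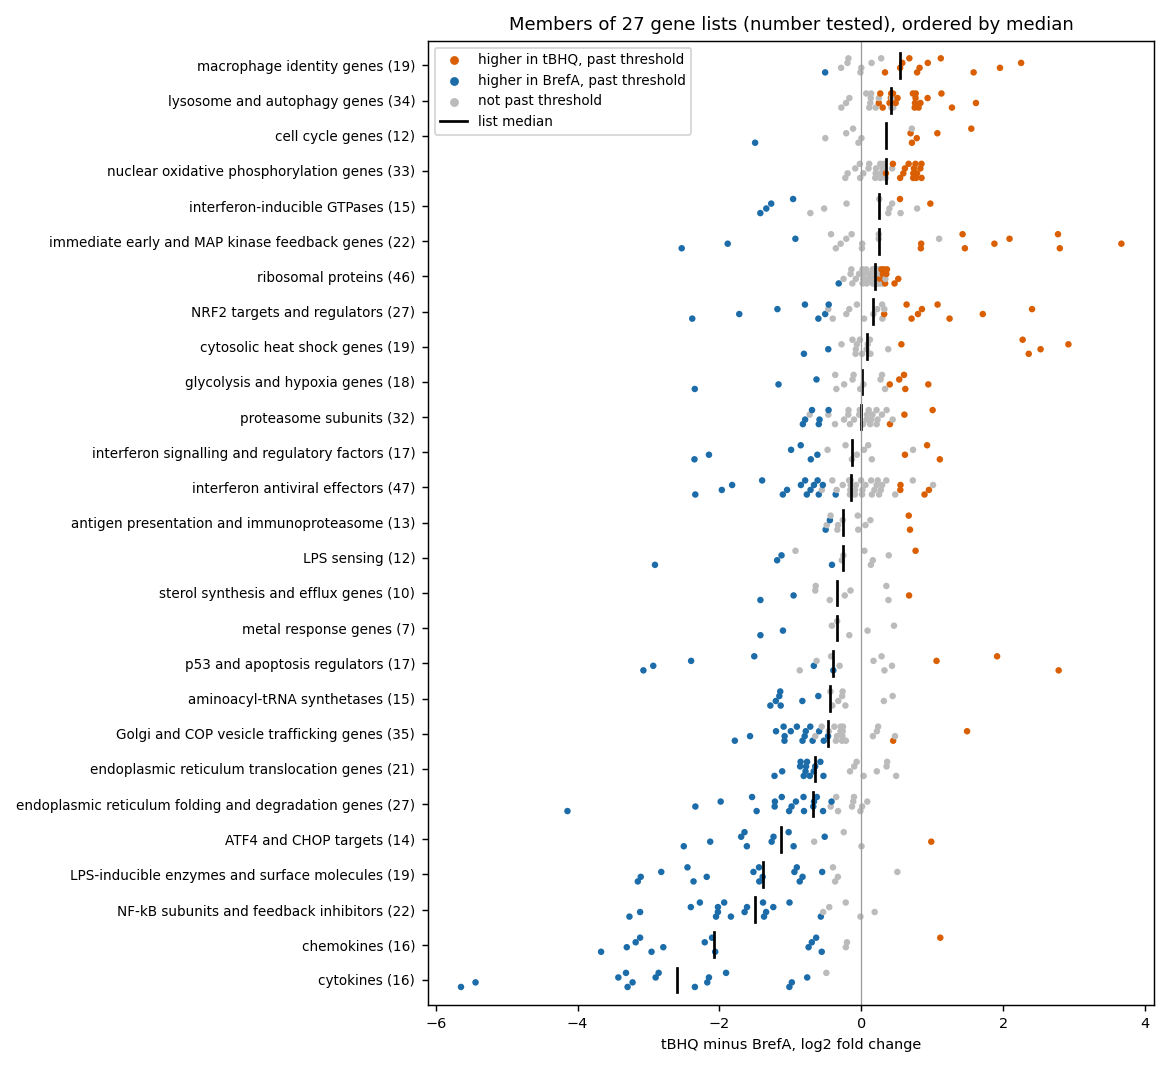
The log2 difference tBHQ minus BrefA of each tested member of 27 gene lists, ordered by list median (black bar), with members past the threshold in orange (higher in tBHQ) or blue (higher in BrefA). Cytokines, chemokines and NF-kB genes have the lowest medians (-2.60, -2.08 and -1.50), and macrophage identity and lysosome genes the highest (0.55 and 0.43).

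Of the remaining lists, the proteasome (3 of 32 higher in tBHQ, 6 lower), glycolysis and hypoxia (5 of 18 higher, 3 lower), p53 and apoptosis regulators (3 of 17 higher, 6 lower), cell cycle (5 of 12 higher, 1 lower), sterol (1 of 10 higher, 2 lower) and metal response genes (0 of 7 higher, 2 lower) had medians between -0.39 and 0.35. Their shares called ran from 28.1 to 52.9%, beside 36.4% of all tested genes. The medians of the proteasome and glycolysis lists changed sign among the alternatives, and that of the cell cycle list did so with the 2 groups fitted alone.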

How the data were processed

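Male C57BL/6 BMDMs were profiled in 96 libraries (12 groups of 8, 4 wells on each of 2 plates) by a 3' digital expression protocol, per the labels' protocols. The authors deposited a table of whole-number counts per gene symbol for 23481 symbols. BWA and build mm10 are named in the submitters' processing notes, while the BWA version, the annotation, strand use and any collapsing of PCR copies were not given in the sources used here. Counts were tested with edgeR 4.0.16 in R 4.3.3: filterByExpr (4963 genes kept), TMM factors on full library totals, a robust quasi-likelihood fit over all 96 libraries with group and plate as terms, two-sided tests and Benjamini-Hochberg adjustment over all tested genes, with a threshold of 0.05. The filter keeps a gene that is expressed in about as many libraries as 1 group holds. A gene near 0 in tBHQ or in BrefA can therefore be tested through its level elsewhere. Standard errors and 95% intervals come from the F statistic of the fit. The plate interaction was fitted on the 32 libraries of tBHQ, BrefA, DMSO and NoStim. Alternatives covered scaling, filters, the plate term, each plate alone, wells summed, a replicate block, a Rn45s covariate, DESeq2 1.42.0 and leaving out single libraries. Library totals and Rn45s shares were compared by exact permutation within plates (4900 arrangements).

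The members and gene lists were chosen with earlier results of these data known. Genes were named by this rule: the 12 highest and 12 lowest called genes with at least 30 CPM in the higher group and one direction on both plates, leaving out predicted genes, up to 5 called members of largest change from each of 27 lists, and the first 3 members of each list. Some genes that the rule names are not reported here. Of 109 genes followed across the alternatives, 13 were outside this rule and were chosen after their values were seen: Ccl6, Cxcl10, Ftl1, Gdf15, Hsp90aa1, Ifitm3, Irgm1, Jun, Mx1, Rsad2, Tgtp1, Txnrd1 and Xaf1. The same holds for the genes too low to be tested. Deviations from group-and-plate means of same-lettered wells on the 2 plates correlated from 0.088 to 0.53 in tBHQ (2790 genes). In BrefA they correlated from -0.029 to 0.18. The means for other letters, -0.082 and -0.017, are largely tied to these values by the centering and are no separate reference. Wells summed by letter is the alternative for a shared source, which the labels do not give.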

Additional observations from a re-analysis of the deposited data

Results flagged for a closer look

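In 17 of 218 pairs of a gene and a group, a well lay further from the other 7 than Dixon's 95% critical value for 8 samples allows. The ratio given is the gap to the nearest well over the group's range, on log2(CPM + 1). Chance alone gives about 1 in 20 groups.

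Among tBHQ wells, the well 2F was lowest for Il1b (77.3 CPM, others from 179 to 306, ratio 0.611), Edn1 (0, others from 5.70 to 34.9, ratio 0.531), Mx1 (27.3, others from 75.4 to 139.6, ratio 0.620) and Gbp7 (40.9, others from 72.7 to 93.0, ratio 0.698). The well 1F was lowest for Ifit3 (30.2, others from 87.2 to 213, ratio 0.540), Tgtp1 (0, others from 14.2 to 40.0, ratio 0.734), Hsp90b1 (161, others from 368 to 485, ratio 0.750) and Flcn (30.2, others from 47.0 to 69.0, ratio 0.534). The well 2G was lowest for Ccl3 (312 CPM, others from 428 to 535, ratio 0.582) and 1G for Hyou1 (28.5 CPM, others from 61.8 to 93.1, ratio 0.651). The tBHQ minus BrefA differences of Il1b, Edn1, Gbp7, Hsp90b1, Flcn, Ccl3 and Hyou1 passed edgeR's test with and without the well concerned, and those of Mx1, Ifit3 and Tgtp1 passed it in neither fit.

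Among BrefA wells, 2H was highest for Nfkbie (444 CPM, others from 235 to 304, ratio 0.594) and Socs3 (356, others from 161 to 221, ratio 0.602), and 1H was highest for Gbp3 (195, others from 94.1 to 121, ratio 0.657). The lowest wells were 1E for Iigp1 (4.22 CPM, others from 32.02 to 71.1, ratio 0.703), 2E for Tnfaip8l2 (0, others from 4.59 to 19.8, ratio 0.567), 1F for Rgs2 (10.7, others from 35.2 to 86.9, ratio 0.561) and 2F for Hbegf (0, others from 3.52 to 12.7, ratio 0.577). All 7 differences passed the test with and without the well concerned; for Iigp1 the log2 fold change was 0.97 with 1E and 0.79 without it (edgeR adjusted p = 0.0062 and 0.023).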

How the results depend on the processing

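Of 97 called genes named here, 79 kept their direction and their call under each alternative in which they were tested and 18 lost the call in at least 1, of which 14 did so only with a plate taken alone and 2, Tap1 and Ddit3, when a single library was left out. No direction reversed, and 1 gene was gained. Leaving out each of the 16 libraries in turn gave 1676 to 1871 called genes for tBHQ minus BrefA, 802 to 905 higher and 874 to 966 lower. Plate 1 alone called 1188 genes for tBHQ minus BrefA (537 higher) and 518 for BrefA minus DMSO. Plate 2 alone called 1110 (509 higher, 601 lower), 1114 for tBHQ minus DMSO, 487 for BrefA minus DMSO and 882 for DMSO minus NoStim. For tBHQ minus DMSO the share of calls that were higher went from 47.5% to 61.9% with RLE scaling and 70.1% with library totals, and for DMSO minus NoStim from 54.1% to 38.4% and 27.4%. For BrefA minus DMSO it went from 46.6% to 58.4% with library totals. With the LPS classes set by the threshold alone, 514 LPS-raised genes were lower in tBHQ and 451 LPS-lowered genes higher, and at 4-fold 112 and 50. Same-lettered tBHQ and BrefA wells of a plate had correlations of their deviations from -0.25 to 0.12, so the wells were not paired in the values reported. These fits test different numbers of genes: for tBHQ minus BrefA the replicate block called 1786 of 4770 tested genes, wells summed by letter 1895 of 6947, and the 2 groups fitted alone 1438 of 3475, beside 1805 of 4963. With about 175510 to 290435 counts a library, genes of a few CPM rest on few counts, and a missing call there does not show that levels were equal.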
